A study of Homo sapiens with 9 samples.

Results

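The genes described here are 9 transcripts that work in other cells has named as targets of 2 microRNAs: DLK1, ALCAM, SETD5 and PTPN7 for miR-126-5p, and NRIP1, NCOA1, CD38, CD274 and ATP6AP2 for miR-140-3p. They were picked by gene symbol, as the rows of the deposited array table whose platform annotation gives that symbol and no other. Each of the 9 genes had exactly 1 such row, so they make up 9 of 36176 rows with 1 symbol and 9 of 33616 genes. No measured value entered the choice of rows, although the genes were proposed with earlier results of these arrays known.

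Total RNA of HCN-2, a human cortical neuronal cell line, was read on 3 sets of 3 arrays. Cells received a miR-126-5p mimic, a miR-140-3p mimic or a scrambled control RNA, with 3 μL of 20 μM RNA and 6 μL of transfection reagent in every set, and RNA was collected 24 h after transfection. All sets thus share the line, the reagent and the time, and no untreated or reagent-only arrays were analysed here. A fall with a mimic and a rise with the scrambled RNA therefore cannot be told apart, and every fall or rise below is relative to the scrambled set. Whether the 3 arrays of each set stem from different cultures is not stated in the labels. The p-values may therefore reflect nothing beyond the spread among these 9 RNA samples, and their number limits the precision.

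A microRNA is a short RNA that guides a silencing complex to messenger RNAs, mostly through sites in the 3′ end of the message that pair with its seed, the bases at positions 2 to 8. Pairing slows translation and often lowers the level of the message, usually modestly. A mimic is a synthetic copy of the mature strand that loads the cell with one microRNA. An array sees the RNA level alone, so a target held back only in translation would show no difference here. Protein levels of the targets were not analysed here.

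Both mature sequences are shown because their seeds decide which messages each mimic can pair with. They come from RefSeq on build GRCh38.p14, and the seed is in capitals. Mature miR-126-5p lies at chr9:136670616-136670636 and mature miR-140-3p at chr16:69933142-69933162, both on the plus strand and both 21 bases long.
hsa-miR-126-5p: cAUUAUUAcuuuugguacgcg
hsa-miR-140-3p: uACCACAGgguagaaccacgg
The seeds have the same base at 2 of their positions, and 0 other mature microRNAs in the table carry either seed. Sites for the seeds in the 9 transcripts were not searched.

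The values are log2 intensities that the authors normalized, so a difference of 1 is a doubling. They were compared with limma in 1 fit of the 9 arrays, and a gene is said to have risen or fallen when its Benjamini-Hochberg adjusted p over all 36176 rows was under 0.05. A second, looser threshold was an unadjusted p under 0.05 with a log2 difference over 0.322, the fold threshold given in the study's results. Both mimics were compared with the same 3 control arrays, so the comparisons are not independent, and the values are given side by side. Against control, 137 rows passed the adjusted threshold with miR-126-5p and 86 with miR-140-3p, while limma called 0 between the mimics, where 3279 rows had an unadjusted p under 0.05. At the looser threshold, 65.6% of the rows with miR-126-5p were lower than control, but 50.4% after another quantile normalization and 34.4% when all rows, annotated or not, were tested. The corresponding shares for miR-140-3p were 60.6%, 50.8% and 45.6%. When only the 18088 rows above the median level were fitted, 2120 were lower and 629 higher at the looser threshold with miR-126-5p. With miR-140-3p 1297 were lower and 475 higher, so bright genes are better read against these counts than against all rows. Of the 17 neuronal marker genes with a row, 5 were brighter than the median row (log2 5.67), among them NEFM at 13.06 and MAP2 at 9.04, while RBFOX3 at 5.29, SYP at 5.54 and SNAP25 at 4.03 were dimmer. Of 9 fibroblast and mesenchymal markers 8 were brighter, led by FN1 at 18.80 and COL1A2 at 17.77, so several defining neuronal markers were dim where mesenchymal ones were bright, although brightness also depends on the probes of a row. No marker gene passed the adjusted threshold in any comparison.

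Of the 9 reported targets, CD274 alone fell, and it fell with both mimics, where 0.354% of all rows were lower at the adjusted threshold with miR-126-5p and 0.229% with miR-140-3p. Its decrease was to 0.379 of control with miR-140-3p, the microRNA it is reported to be a target of, and to 0.390 of control with miR-126-5p, for which it was not listed. None of the 4 reported targets of miR-126-5p passed either threshold with that mimic. DLK1 and PTPN7 among them were dim, with control means of 5.05 and 4.20 below the median row at 5.67. A decrease of either had little room to show. CD38 was lower with both mimics on every array but passed only the looser threshold, and the other 7 targets passed neither in any comparison.

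**Figure D1:**
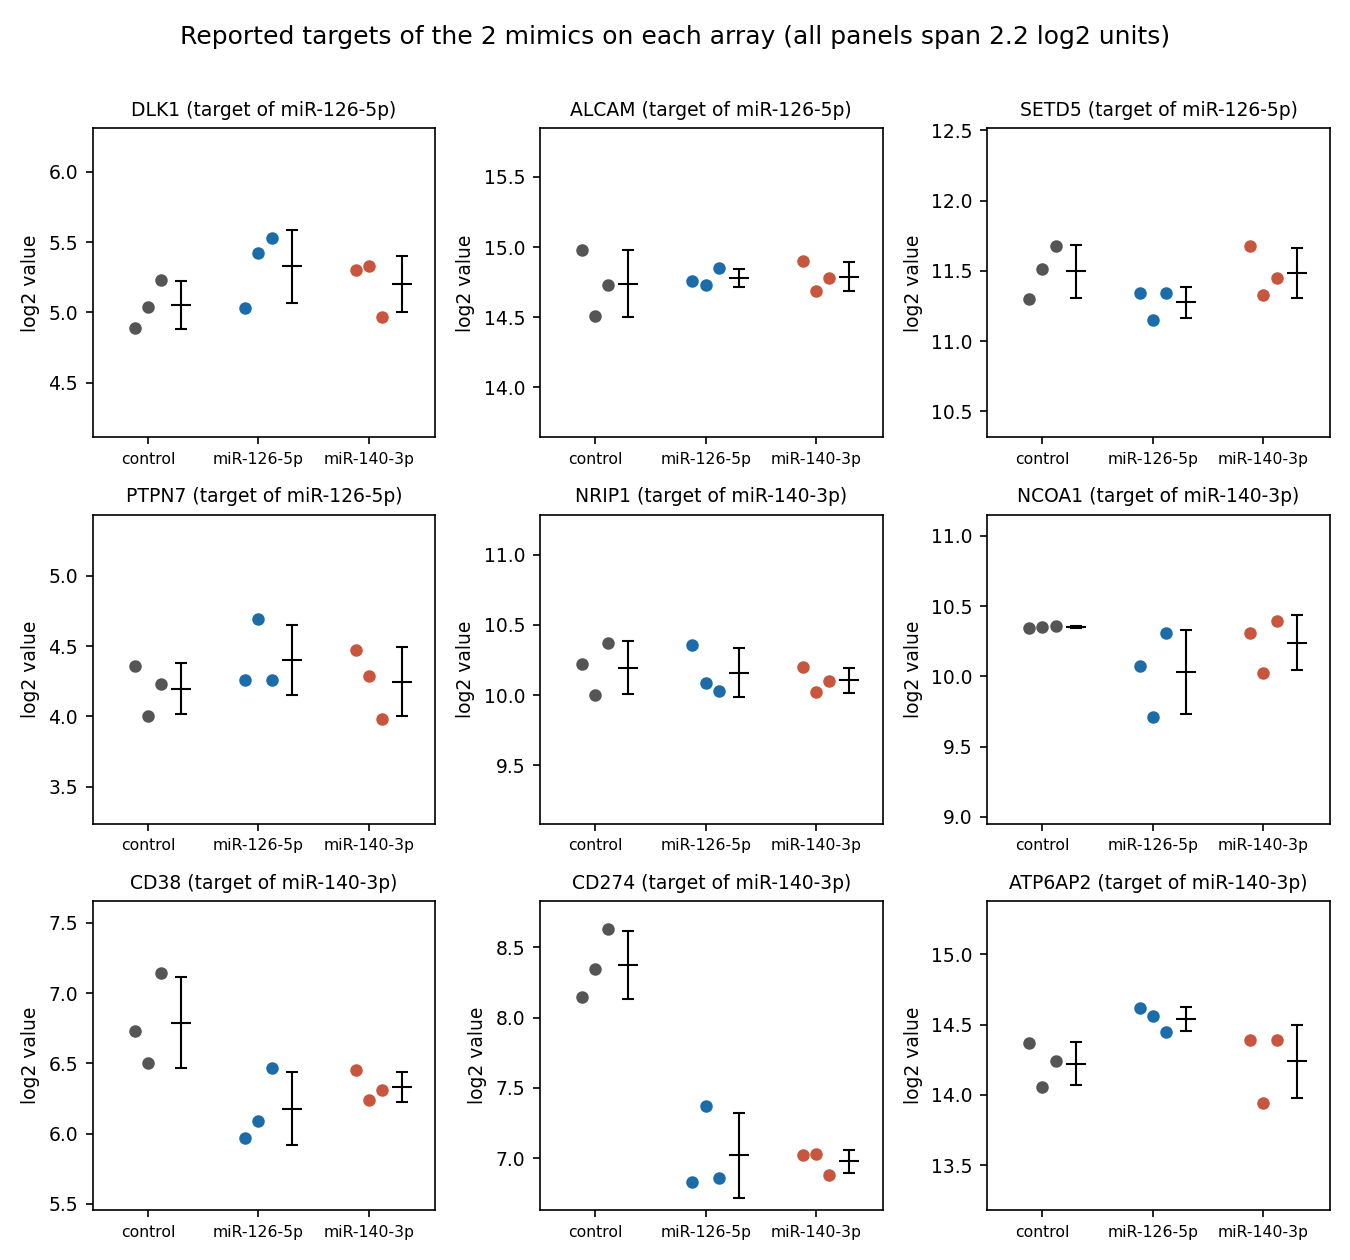
Log2 value of each of the 9 reported targets on each array, with points for the 9 arrays and a black mark with a bar for the mean and SD of each set of 3. In the CD274 panel the control arrays sit between 8.15 and 8.63, above all 6 mimic arrays at 6.83 to 7.37, whereas the sets overlap for most other targets.

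CD274, which encodes the checkpoint ligand PD-L1 that dampens T cells through PD-1, had log2 values of 8.15, 8.35 and 8.63 on the control arrays. With miR-140-3p the values were 7.02, 7.03 and 6.88. With miR-126-5p they were 6.83, 7.37 and 6.86. The lowest control array thus stood above the highest mimic array, and the mimic sets overlapped each other. With miR-140-3p CD274 fell by 1.40 on the log2 scale (SE 0.19, 95% interval -1.82 to -0.98, adjusted p = 0.00678 from limma, n = 3 arrays per set). With miR-126-5p it fell by 1.36 (SE 0.19, 95% interval -1.78 to -0.94, adjusted p = 0.0055 from limma). Between the mimics the difference was -0.04 (95% interval -0.46 to 0.37, adjusted p = 0.972 from limma), so a difference of more than 0.46 in either direction lies outside the interval. In bulk RNA, fewer cells that carry a transcript and less of it per cell cannot be told apart. Nor can lower values with the mimics be told apart from higher values with the scrambled RNA. The call with miR-140-3p was lost without scrambled control replicate 3 (adjusted p = 0.0505 from limma, difference -1.28) and over every row (adjusted p = 0.0521), and both calls were lost when the variance was not moderated across rows. The study's own list of genes lower with both mimics, drawn from these arrays, holds CD274 as well as PDCD1LG2, IRF1, IRF9 and NRIP3 below, so it is not independent evidence of their direction.

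CD274 is best known as a gene that interferon switches on, through STAT and IRF proteins that bind its promoter. The 250 bases before its start (chr9:5450292-5450541, plus strand, RefSeq, GRCh38.p14) are shown because IRF9, read on the same arrays, also fell with miR-126-5p. Capitals mark matches, on either strand, to GAAA, any 2 bases and GAAA again (TTTC, any 2 bases and TTTC on the reverse strand), an IRF-type motif, or to TTCNNNGAA, a STAT-type motif that reads the same on both strands.
CD274 upstream: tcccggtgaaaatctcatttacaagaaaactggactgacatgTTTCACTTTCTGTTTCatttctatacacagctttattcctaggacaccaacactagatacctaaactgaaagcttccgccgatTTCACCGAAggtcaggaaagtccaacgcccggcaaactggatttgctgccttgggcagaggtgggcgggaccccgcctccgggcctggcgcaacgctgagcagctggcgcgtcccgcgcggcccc
The first block of capitals holds 2 overlapping IRF-type matches, which begin at positions -208 and -202 from the start, and the STAT-type match begins at -125. Of 35116 upstream windows of this length in the table, 3.02% held the first motif and 6.57% the second. Of the 8 reported targets with a window, CD274 was the one with a match to either. A match describes the letters and shows no binding.

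Of 12 measured interferon signalling genes that lead to CD274, 2 were lower past the looser threshold with each mimic and 0 were higher, where 6.83% and 5.16% of all rows were lower. The list medians were -0.11 for miR-126-5p and -0.02 for miR-140-3p, and 1 gene passed the adjusted threshold. Brighter than the median row were 11 of the 12. Among 18088 such rows fitted alone, 2120 and 1297 were lower at the looser threshold, and 629 and 475 higher. IRF9, the DNA-binding subunit of the complex that type I interferon activates, had log2 values of 14.33, 14.84 and 14.92 on the control arrays. Its values were 11.60, 11.94 and 12.98 with miR-126-5p and 13.64, 12.71 and 13.04 with miR-140-3p. As for CD274, every mimic array lay below every control array. IRF9 fell by 2.53 with miR-126-5p (SE 0.33, adjusted p = 0.00334 from limma), a call lost without moderation of the variance (adjusted p = 0.218). With miR-140-3p the difference was -1.57 (SE 0.33, adjusted p = 0.123 from limma), which passed the threshold when an intensity trend and robust estimation of the variance were used together (adjusted p = 0.0429) and without miR-126-5p replicate 3 (adjusted p = 0.0273). Between the mimics the difference was 0.96 (adjusted p = 0.475 from limma). IRF1, a factor that acts directly on the CD274 promoter and was chosen here after its values were seen, went from 11.37 ± 0.20 (SD, n = 3) in control to 10.45 ± 0.24 with miR-126-5p and 10.37 ± 0.44 with miR-140-3p. Its differences were -0.92 (adjusted p = 0.163 from limma) and -1.0 (adjusted p = 0.157 from limma). The part of interferon signalling in the difference of CD274 was not tested.

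**Figure D2:**
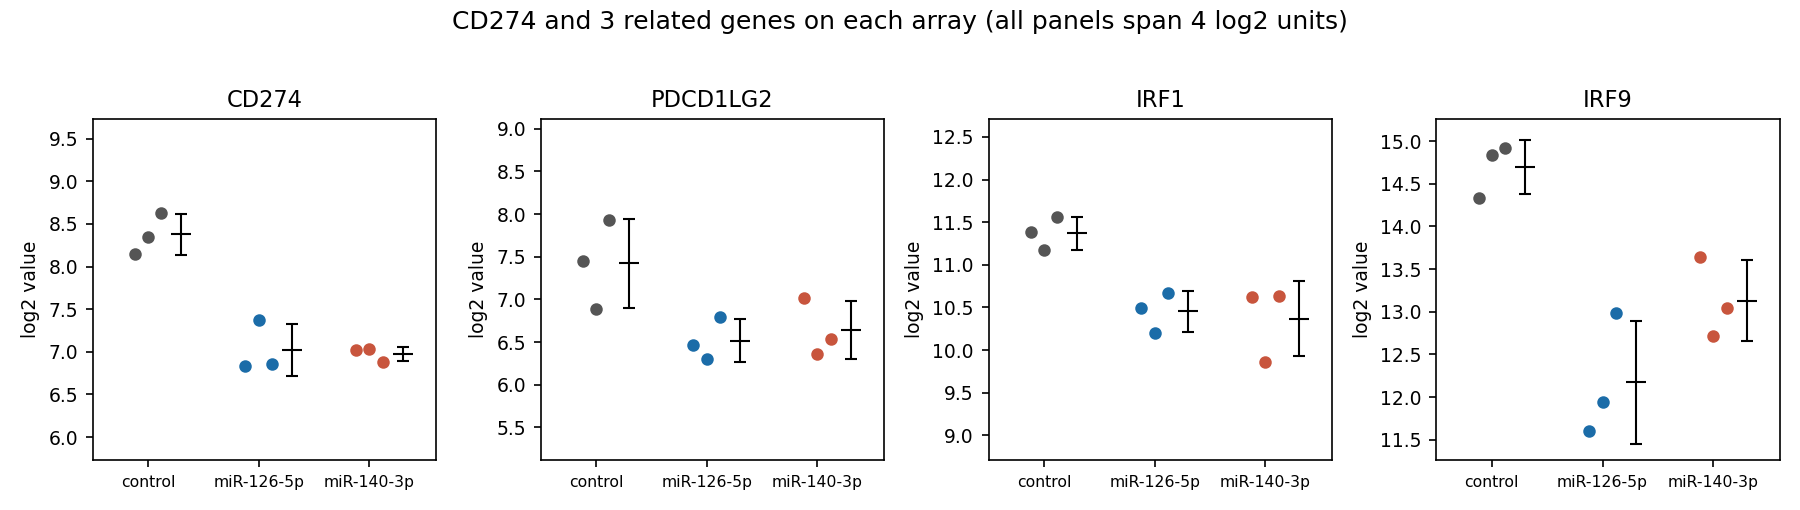
Log2 values of CD274, PDCD1LG2, IRF1 and IRF9 on each array, with points for the arrays and a black mark with a bar for the mean and SD of each set of 3. CD274, IRF1 and IRF9 have every mimic array below every control array, while for PDCD1LG2 the miR-140-3p array at 7.02 lies above the control array at 6.89.

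PDCD1LG2 encodes PD-L2, the other ligand of PD-1. It had control values of 7.45, 6.89 and 7.93, against 6.46, 6.30 and 6.79 with miR-126-5p and 7.02, 6.36 and 6.54 with miR-140-3p. The miR-126-5p arrays lay below all control arrays and the miR-140-3p arrays overlapped them. The differences were -0.91 (adjusted p = 0.241 from limma) and -0.79 (adjusted p = 0.435 from limma), both past the looser threshold only. Of the 12 measured checkpoint genes of the B7 and CD28 families beside CD274, 2 were lower past the looser threshold with each mimic and 0 were higher, against 6.83% and 5.16% of all rows lower, and 0 passed the adjusted threshold. The medians of the list were -0.19 with miR-126-5p and -0.03 with miR-140-3p, against -0.04 and -0.02 over all rows. VTCN1, an inhibitory ligand of the family, was 0.55 higher in miR-140-3p cells than in miR-126-5p cells (adjusted p = 0.501 from limma). Both levels, 4.78 ± 0.04 and 4.23 ± 0.13 (SD, n = 3), lay below the median row at 5.67.

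CD38, an ectoenzyme of immune and other cells that consumes NAD, had log2 values of 6.73, 6.50 and 7.14 in control. With miR-140-3p, its reported regulator, the values were 6.45, 6.24 and 6.31. With miR-126-5p they were 5.97, 6.09 and 6.47. No mimic array reached the lowest control array, although the gap was small, 6.50 against 6.47 and 6.45. The difference was -0.46 with miR-140-3p (SE 0.20, 95% interval -0.90 to -0.03, adjusted p = 0.549 from limma). With miR-126-5p it was -0.62 (SE 0.20, 95% interval -1.05 to -0.18, adjusted p = 0.304 from limma). Between the mimics it was 0.15 (95% interval -0.28 to 0.59, adjusted p = 0.858 from limma). Of 9 leukocyte and microglia markers 4 were brighter than the median row, CD14 at 7.47, CSF1R at 7.27, CD3E at 6.25 and CX3CR1 at 6.20, while the pan-leukocyte gene PTPRC was dimmer at 5.39. The list means per array were 5.42 to 5.61 in control, 5.36 to 5.48 with miR-126-5p and 5.43 to 5.59 with miR-140-3p. CD14, a monocyte receptor, was at 7.90 ± 0.46 in control, 7.12 ± 0.20 with miR-126-5p and 7.38 ± 0.40 with miR-140-3p (SD, n = 3), and its difference of -0.77 with miR-126-5p passed the looser threshold only (adjusted p = 0.313 from limma). The B cell marker MS4A1 was 0.60 above control with miR-126-5p (adjusted p = 0.318 from limma) and in miR-140-3p cells 0.62 above (adjusted p = 0.409 from limma). Its level was low, 3.87 ± 0.40 in control, 4.47 ± 0.16 with miR-126-5p and 4.49 ± 0.05 with miR-140-3p (SD, n = 3). Background control rows of the table averaged 3.67 to 3.89 per array. All arrays are labelled as HCN-2 cells, and whether any leukocytes or microglia were present or had a part in the difference of CD38 was not tested.

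Among 17 NAD metabolism genes beside CD38, 3 were lower past the looser threshold with miR-126-5p and 0 higher, while with miR-140-3p 1 was lower and 1 higher, against 6.83% lower and 3.57% higher of all rows with miR-126-5p and 5.16% and 3.35% with miR-140-3p. NADSYN1, which makes NAD in its final step, was 0.70 below control on the log2 scale with miR-126-5p (10.39 ± 0.20 in control and 9.69 ± 0.17 with the mimic, SD, n = 3, adjusted p = 0.182 from limma). SIRT3, a mitochondrial deacetylase that uses NAD, went from 9.07 ± 0.26 to 8.45 ± 0.20 (adjusted p = 0.322 from limma). With miR-140-3p these genes stood at 10.13 ± 0.22 and 8.96 ± 0.34. The list's medians were -0.23 and -0.11. Brighter than the median row were 13 of the 17. Among 18088 such rows fitted alone, 2120 and 1297 were lower at the looser threshold, and 629 and 475 higher.

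NRIP1 and NCOA1 are coregulators of nuclear receptors with opposite roles, NRIP1 (RIP140) a corepressor and NCOA1 (SRC-1) a coactivator, and both are reported targets of miR-140-3p. NRIP1 had log2 values of 10.22, 10.00 and 10.37 in control, against 10.20, 10.02 and 10.10 with miR-140-3p. The miR-126-5p values were 10.36, 10.09 and 10.03. The 3 sets overlapped. With miR-140-3p the difference was -0.09 (SE 0.17, 95% interval -0.45 to 0.27, adjusted p = 0.918 from limma), an interval whose lower end is a level 26.9% below control. With miR-126-5p it was -0.04 (95% interval -0.40 to 0.32, adjusted p = 0.961 from limma).

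NCOA1 had control values of 10.34, 10.35 and 10.36, the closest agreement of any set of any reported target. With miR-140-3p the values were 10.31, 10.02 and 10.39. With miR-126-5p they were 10.07, 9.71 and 10.31. Only the miR-126-5p arrays were all below the control arrays, the highest by a small margin. The difference was -0.11 with miR-140-3p (SE 0.18, 95% interval -0.51 to 0.29, adjusted p = 0.909 from limma). For miR-126-5p it was -0.32 (SE 0.18, 95% interval -0.72 to 0.08, adjusted p = 0.589 from limma). Between the mimics it was 0.21 (95% interval -0.19 to 0.61, adjusted p = 0.767 from limma).

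Of 16 other nuclear receptor coregulators, 4 were lower past the looser threshold with miR-126-5p and 3 with miR-140-3p, and 0 were higher with either, where 6.83% and 5.16% of all rows were lower and 3.57% and 3.35% higher. The medians were -0.19 and 0.00, against -0.04 and -0.02 over all rows. Brighter than the median row were 13 of the 16. Among 18088 such rows fitted alone, 2120 and 1297 were lower at the looser threshold, and 629 and 475 higher. NRIP3 had control values of 5.70, 5.59 and 5.91, miR-126-5p values of 5.14, 4.68 and 4.56 and miR-140-3p values of 4.91, 4.64 and 5.10. Both mimic sets lay below control, with differences of -0.94 (adjusted p = 0.0822 from limma) and -0.85 (adjusted p = 0.175 from limma). The corepressor CTBP2 was at 10.30 ± 0.43 in control, 9.44 ± 0.19 with miR-126-5p and 10.30 ± 0.26 with miR-140-3p (SD, n = 3). Its difference of 0.87 between the mimics had an adjusted p of 0.44 from limma.

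ATP6AP2, the prorenin receptor and an accessory protein of the vacuolar proton pump, had log2 values of 14.37, 14.06 and 14.24 in control. With miR-140-3p, its reported regulator, the values were 14.39, 13.94 and 14.39. With miR-126-5p they were 14.62, 14.56 and 14.45. The miR-140-3p arrays spread around the control arrays, while the miR-126-5p arrays lay above both other sets. The difference with miR-140-3p was 0.02 (SE 0.17, 95% interval -0.36 to 0.40, adjusted p = 0.988 from limma), whose lower end is 22.0% below control. With miR-126-5p it was 0.32 (SE 0.17, 95% interval -0.06 to 0.70, adjusted p = 0.561 from limma). Between the mimics it was -0.30 (95% interval -0.68 to 0.08, adjusted p = 0.626 from limma).

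Among 16 subunits and associated proteins of the vacuolar proton pump, 1 was lower past the looser threshold with miR-126-5p. With miR-140-3p 1 was lower and 1 higher. Over all rows, 6.83% were lower with miR-126-5p, and 5.16% lower and 3.35% higher with miR-140-3p. The list medians were -0.10 and 0.12. All 16 were brighter than the median row. Among 18088 such rows fitted alone, 2120 and 1297 were lower at the looser threshold, and 629 and 475 higher. ATP6V0C, the subunit that forms the proton ring, was at 14.91 ± 0.48 in control, 14.20 ± 0.12 with miR-126-5p and 15.02 ± 0.20 with miR-140-3p (SD, n = 3). Its difference of -0.71 with miR-126-5p had an adjusted p of 0.294 from limma, or 0.0441 without scrambled control replicate 1. ATP6V0E2, another membrane subunit, was 0.53 higher in miR-140-3p cells than in miR-126-5p cells (adjusted p = 0.492 from limma). Of 8 genes of the renin-angiotensin system 0 passed the looser threshold with either mimic. Of all rows, 6.83% were lower and 3.57% higher with miR-126-5p, and 5.16% and 3.35% with miR-140-3p. The medians of the 8 genes were -0.06 and 0.10, against -0.04 and -0.02 over all rows.

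**Figure D3:**
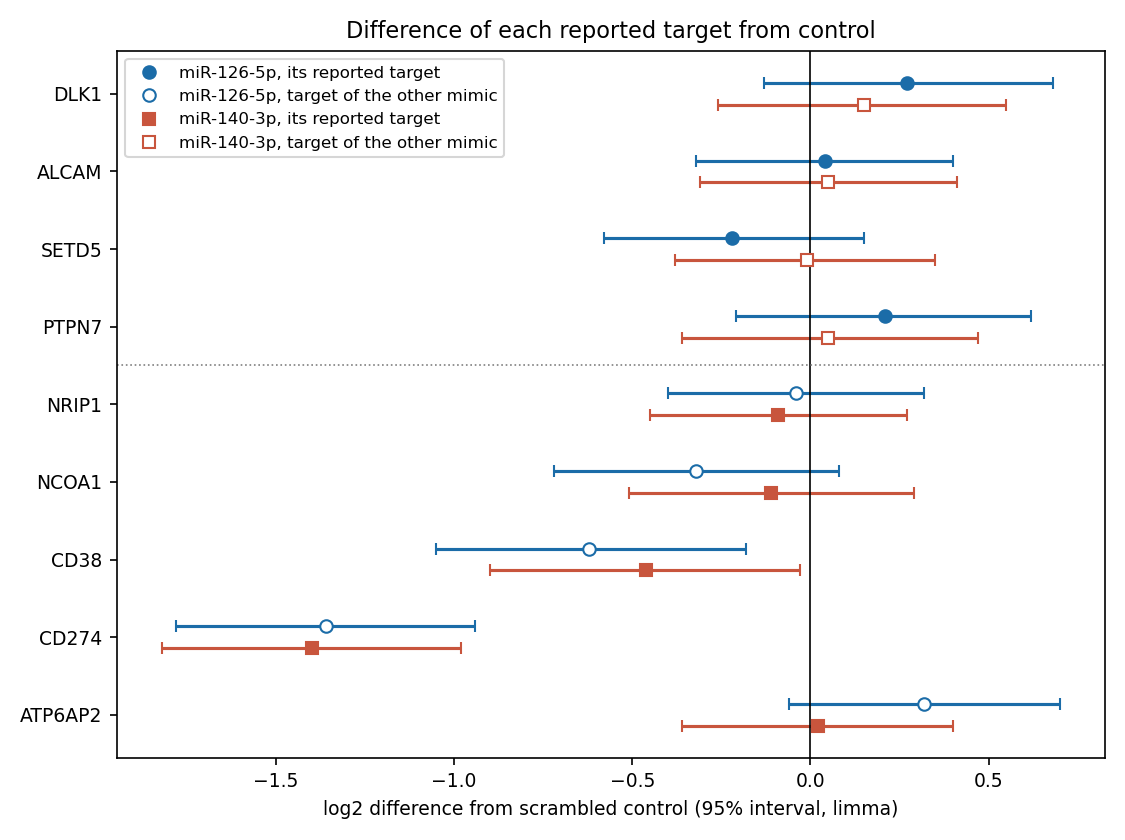
Log2 difference of each reported target from the scrambled control with its 95% interval from limma, for miR-126-5p (circles) and miR-140-3p (squares); filled marks are a mimic with its own reported targets and open marks the other mimic. For CD274 and CD38 both intervals lie below 0, and every other interval includes 0.

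The reported targets of miR-126-5p gave no call with their own mimic. DLK1, a membrane protein that restrains Notch signalling and adipocyte formation, had log2 values of 4.89, 5.04 and 5.23 in control, 5.03, 5.42 and 5.53 with miR-126-5p and 5.30, 5.33 and 4.97 with miR-140-3p. The sets overlapped, and the values lay below the median row, while background control rows averaged 3.67 to 3.89 per array. With miR-126-5p the difference was 0.27 (SE 0.19, 95% interval -0.13 to 0.68, adjusted p = 0.659 from limma), whose lower end is a signal 8.58% below control. For so dim a row the signal may bound the transcript only loosely. With miR-140-3p it was 0.15 (95% interval -0.26 to 0.55, adjusted p = 0.869 from limma).

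Of 18 Notch pathway genes 2 were lower past the looser threshold with miR-126-5p and 0 higher, with 15 below control and a median of -0.24, where 6.83% of all rows were lower at that threshold, 56.0% lay below control and the median was -0.04. With miR-140-3p 0 passed and the median was -0.13, against -0.02 over all rows. The receptor NOTCH1 was at 7.87 ± 0.23 in control and 7.32 ± 0.27 with miR-126-5p (SD, n = 3, adjusted p = 0.416 from limma), against 7.54 ± 0.35 with miR-140-3p. MAML1, a coactivator of Notch, was 0.52 higher in miR-140-3p cells than in miR-126-5p cells (adjusted p = 0.527 from limma).

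ALCAM, a cell adhesion molecule of the immunoglobulin family that neurons and leukocytes use, had log2 values of 14.98, 14.51 and 14.73 in control. With miR-126-5p they were 14.76, 14.73 and 14.85. With miR-140-3p they were 14.90, 14.69 and 14.78. All mimic arrays lay within the range of the control arrays. The difference with miR-126-5p was 0.04 (SE 0.16, 95% interval -0.32 to 0.40, adjusted p = 0.956 from limma), so that a decrease of more than 19.6% lies outside the interval. With miR-140-3p it was 0.05 (95% interval -0.31 to 0.41, adjusted p = 0.955 from limma).

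A list of 16 genes held other adhesion molecules of the immunoglobulin family and CD6, a ligand of ALCAM from another family. Past the looser threshold 3 were lower with miR-126-5p and 2 with miR-140-3p, and 0 were higher, where 6.83% and 5.16% of all rows were lower. VCAM1, an endothelial and stromal receptor for leukocyte integrins, was at 12.19 ± 0.04 in control, 11.36 ± 0.32 with miR-126-5p and 11.50 ± 0.38 with miR-140-3p (SD, n = 3). Its differences of -0.83 and -0.69 had adjusted p values of 0.185 and 0.402 from limma. ICAM1, a ligand of leukocyte integrins, was at 11.39 ± 0.50, 10.66 ± 0.45 and 11.46 ± 0.28 in the same order, and its difference of -0.73 with miR-126-5p had an adjusted p of 0.389 from limma. The medians of the list were -0.27 and 0.03.

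SETD5, a chromatin protein of the SET family linked to intellectual disability, had log2 values of 11.30, 11.51 and 11.68 in control, 11.34, 11.15 and 11.34 with miR-126-5p and 11.68, 11.33 and 11.45 with miR-140-3p. It was the one reported target of miR-126-5p whose mean was lower with that mimic, but its arrays overlapped the control arrays. The difference was -0.22 (SE 0.17, 95% interval -0.58 to 0.15, adjusted p = 0.706 from limma), which leaves room for a decrease of up to 33.3%. With miR-140-3p it was -0.01 (95% interval -0.38 to 0.35, adjusted p = 0.993 from limma).

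Among 19 other genes of the SET family 3 were lower past the looser threshold with miR-126-5p and 1 with miR-140-3p, and 0 were higher, where 6.83% and 5.16% of all rows were lower. With miR-126-5p 17 of the 19 lay below control, with a median of -0.20, and with miR-140-3p 11 did, with a median of -0.02. Over all rows 56.0% and 53.6% lay below control, with medians of -0.04 and -0.02. All 19 were brighter than the median row, and the rows above it had medians of -0.085 and -0.053. Among these 18088 rows fitted alone, 2120 and 1297 were lower at the looser threshold, and 629 and 475 higher. KMT2B, which methylates histone H3 at promoters, went from 9.10 ± 0.10 in control to 8.64 ± 0.12 with miR-126-5p (SD, n = 3, adjusted p = 0.376 from limma) and stood at 9.09 ± 0.27 with miR-140-3p. NSD1, a histone H3 methyltransferase, was at 11.20 ± 0.33, 10.72 ± 0.20 and 10.76 ± 0.11, and its differences of -0.48 and -0.44 had adjusted p values of 0.416 and 0.552 from limma.

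PTPN7, a phosphatase of blood cells that acts on MAP kinases, had log2 values of 4.36, 4.00 and 4.23 in control, 4.26, 4.69 and 4.26 with miR-126-5p and 4.47, 4.29 and 3.98 with miR-140-3p. These are low values, as background control rows of the table averaged 3.67 to 3.89 per array, and the sets overlapped. The difference with miR-126-5p was 0.21 (SE 0.19, 95% interval -0.21 to 0.62, adjusted p = 0.76 from limma), and with miR-140-3p 0.05 (95% interval -0.36 to 0.47, adjusted p = 0.962 from limma). Of 16 MAP kinases and MAP kinase phosphatases 2 were lower past the looser threshold with miR-126-5p and 1 with miR-140-3p, and 0 were higher, where 6.83% and 5.16% of all rows were lower, with medians of -0.16 and 0.04. DUSP7, a phosphatase of ERK kinases, was at 6.59 ± 0.18 in control and 5.92 ± 0.25 with miR-126-5p (SD, n = 3, adjusted p = 0.231 from limma). MAPK7 (ERK5) was 0.96 higher in miR-140-3p cells than in miR-126-5p cells (12.65 ± 0.35 against 11.69 ± 0.17, adjusted p = 0.449 from limma).

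**Figure D4:**
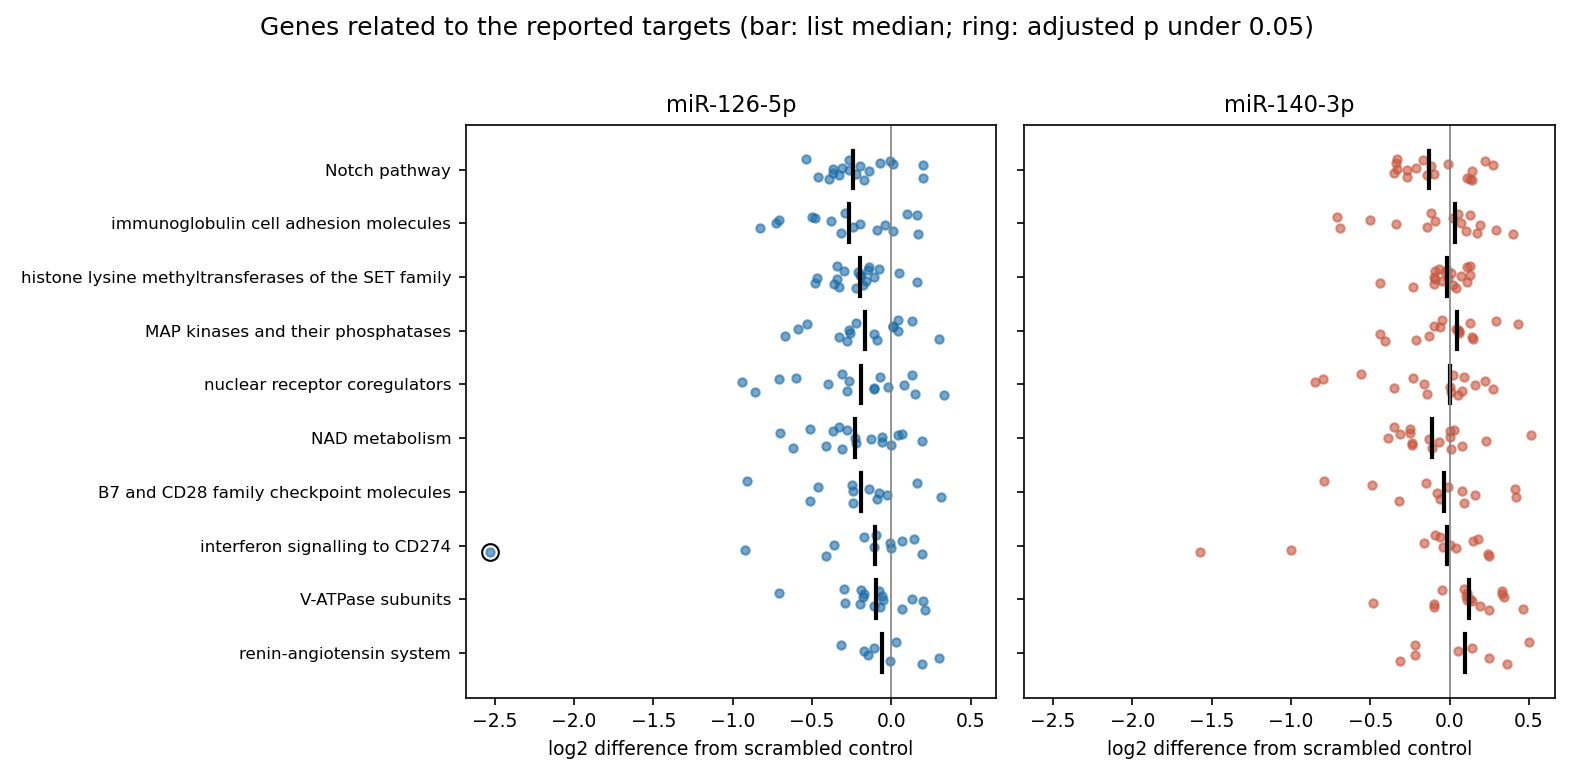
Log2 difference from the scrambled control of each measured gene in 10 lists of genes related to the reported targets, with miR-126-5p on the left and miR-140-3p on the right; black bars are list medians and a ring marks an adjusted p under 0.05. IRF9 with miR-126-5p, at -2.53, carries the one ring, and the medians run from -0.27 to -0.06 with miR-126-5p and from -0.13 to 0.12 with miR-140-3p.

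Set by set, the reported targets of a mimic can be read against all rows. With miR-140-3p, 1 of its 5 targets was lower at the adjusted threshold, where 0.229% of all rows were, and 2 of 5 were lower at the looser threshold, where 5.16% of all rows were. The same 2, CD274 and CD38, were the targets whose arrays all lay below the control arrays, against 7.48% of all rows. No target of either mimic was higher with miR-140-3p at the adjusted threshold, the looser one or without overlap, where 0.00829%, 3.35% and 4.72% of all rows were. The median difference of the 5 was -0.11 and that of all rows -0.02, and 4 of the 5 were below control, as were 53.6% of all rows. With miR-126-5p, 0 of its 4 targets were called by limma, and 0 had an unadjusted p under 0.05, where 0.354% and 6.83% of all rows were lower at the adjusted and the looser threshold. Their median was 0.12 and 1 of 4 was below control, against a median of -0.04 and 56.0% of all rows. DLK1 and PTPN7, which are part of these counts, were dimmer than the median row.

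Swapped between the mimics, the 5 targets of miR-140-3p had a median of -0.32 with miR-126-5p. Of these, 1 was lower at the adjusted threshold, 2 at the looser one and 3 without overlap of the arrays. The shares of all rows that were lower in these ways were 0.354%, 6.83% and 11.0%. ATP6AP2 was higher without overlap, as were 5.55% of all rows. None of the 9 was higher at the adjusted or the looser threshold with miR-126-5p, against 0.0249% and 3.57% of all rows. The 4 targets of miR-126-5p had a median of 0.05 with miR-140-3p and 0 passed either threshold in limma. With that mimic 0.229% of all rows were lower and 0.00829% higher at the adjusted threshold, and 5.16% and 3.35% at the looser one. Between the mimics 0 of the 9 targets had an unadjusted p under 0.05 in limma, where 3.99% of all rows were lower and 5.07% higher with miR-140-3p at the looser threshold. ATP6AP2 was the 1 target whose arrays did not overlap between the mimics, lower with miR-140-3p, as were 6.58% of all rows, and 0 targets were higher without overlap, against 9.12% of all rows. Of the 150 measured genes of the 10 related lists, IRF9 with miR-126-5p was the single one past the adjusted threshold in any comparison.

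The rows most like each target over the 9 arrays were looked up among 18088 rows brighter than the median, as a description. For CD274 they were ZFAND3 (Pearson's r 0.983), TRIP4 (0.973) and PTN (0.971), and PTN, a secreted growth factor of the nervous system, was 0.75 below control with miR-126-5p and 0.83 below with miR-140-3p in the fit's log2 difference. For CD38 they were CD164 (0.979), MED22 (0.979) and MIR6719 (0.972). NCOA1 was closest to NRN1 (0.950), which encodes neuritin, and SETD5 to ZCCHC24 (0.976), PHLDA1 (0.975) and ACTC1 (0.974). ALCAM was closest to CDK5 (0.964), CKS1B (0.959) and SLC12A2 (0.954). For NRIP1, ATP6AP2, DLK1 and PTPN7 the highest values were 0.915, 0.949, 0.916 and 0.922. These arrays share 3 sets and 1 normalization, and a maximum over so many rows is high for any gene.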

How the data were processed

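Total RNA of HCN-2 cells was measured on 9 arrays in 3 sets of 3, grouped by the submitters' labels. The authors deposited log2 values in 1 table, and their processing notes list Partek, RMA and Affymetrix Expression Console, whose versions are not given in the sources used here. RMA evens out the distributions of the arrays, which can remove a change shared by most genes. The chip is Clariom S in the paper's methods but Clariom D in the deposited description, which was not settled. Of 138745 rows, 31 control rows were left out, 36176 with 1 gene symbol in the platform annotation were tested, and 1119 with several symbols and 101419 outside the annotation were not. The values carry no detection call or count depth.

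From these values, limma 3.58.1 in R 4.3.3 (lmFit, eBayes, two-sided, prior degrees of freedom 6.32) was fitted to all 9 arrays with a contrast for each mimic against control and 1 between the mimics (miR-140-3p minus miR-126-5p). The fit was also run on simulated data. The simulated shifts were larger than any difference of a reported target, so that run does not show how effects of their size would be called. P-values were adjusted by Benjamini-Hochberg over all rows tested. The row with the highest mean stands for a gene. The 9 targets were all named. Of each related list, genes past the adjusted threshold were named, or else the 1 or 2 with the largest difference past the looser one, and IRF1 was added. Similar genes were the 3 with the highest Pearson correlation. The members and lists were chosen with earlier results of these data known. Same-numbered arrays showed no clear shared deviation, with correlations of -0.061 to 0.107 over 9 pairs, against -0.147 to 0.111 over 18 pairs of other numbers. Values over 0.1 were 2 and 1 of these. With so few arrays this does not exclude a pairing. The main fit used none, and a block by replicate number was an alternative. Alternatives covered the block, the samples fitted, the variance model, array weights, scaling, dim rows, the rows tested and each array left out. Upstream windows and microRNA sequences are from RefSeq, GRCh38.p14, and DLK1 had no window.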

Additional observations from a re-analysis of the deposited data

How the results depend on the processing

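The 27 differences of the reported targets were recomputed under 18 alternatives, and of 480 values 452 kept their direction and their side of the adjusted threshold, 4 lost a call (all CD274) and 24 changed sign, none of which was called. The CD274 call was lost in limma without moderation of the variance with miR-126-5p (adjusted p = 0.184) and miR-140-3p (adjusted p = 0.214), and with miR-140-3p also over every row of the table (adjusted p = 0.0521) and without scrambled control replicate 3 (adjusted p = 0.0505). Over the alternatives its adjusted p ran from 0.0021 to 0.184 and from 0.00249 to 0.214. The count of called targets was therefore 0 in place of 1 without moderation with either mimic, and 0 over every row with miR-140-3p. With an array left out it was 1 to 1 with miR-126-5p, 0 to 1 with miR-140-3p and 0 to 0 between the mimics.

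Rows called with miR-126-5p were 137, against 214 with an intensity trend and robust estimation together, 0 without moderation, 216 with array weights and 226 among rows above the median, and 80 to 304 with an array left out (80 when miR-126-5p replicate 1 was omitted, 83 for its replicate 2, 304 for control replicate 1 and 82 for control replicate 3). With miR-140-3p they were 86, against 0 without moderation, 55 over every row and 46 to 124 with an array left out (49 when miR-140-3p replicate 2 was omitted, 52 for its replicate 3, 47 for control replicate 2 and 46 for control replicate 3). With the replicate number as a block 121 and 77 rows were called, 0 between the mimics, and no call of a reported target changed. The causes of these moves were not tested.

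Another quantile normalization turned NRIP1 with miR-126-5p to 0.13, SETD5 with miR-140-3p to 0.06 and ALCAM between the mimics to -0.1 (-0.0046 with array weights). With an array left out, ALCAM ran from -0.07 to 0.16 and NRIP1 from -0.14 to 0.05 with miR-126-5p. With miR-140-3p ALCAM ran from -0.06 to 0.17, SETD5 from -0.11 to 0.08, PTPN7 from -0.06 to 0.19, NCOA1 from -0.18 to 0.0011 and ATP6AP2 from -0.06 to 0.17. Between the mimics ALCAM ran from -0.04 to 0.06, NRIP1 from -0.12 to 0.05 and CD274 from -0.14 to 0.13. For the named related genes the same alternatives, added after the data were seen, changed the call in 4 of 573 values, given beside IRF9 and ATP6V0C above. The adjusted p of IRF9 ran from 0.000375 to 0.218 with miR-126-5p and from 0.0273 to 0.497 with miR-140-3p, and that of ATP6V0C with miR-126-5p from 0.0441 to 0.685. Each target has 1 row, so no other row could stand in for it, and DLK1 and PTPN7 gave no value among rows above the median.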
